A study of Homo sapiens with 14 samples.

Results

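Replication-independent histone variants replace the standard core and linker histones in nucleosomes outside of S phase. The 8 genes described here were chosen by symbol from the count tables of A549 and H1792, which list 26732 genes in common, and all 8 were found in both tables. They code for the H2A variants H2A.X (H2AFX), H2A.Z (H2AFZ and H2AFV), macroH2A1 (H2AFY) and H2A.J (H2AFJ), the H3 variant H3.3 (H3F3A and H3F3B) and the linker histone H1X (H1FX). A549 and H1792 are established human lung adenocarcinoma lines, each grown as a single line with no genetic change described in the labels. Cells received 0.1 µM AMG900, an inhibitor of aurora kinases A, B and C, or its solvent DMSO, and RNA was collected after 48 h. A549 gave 4 DMSO and 4 AMG900 libraries, although the protocol speaks of 3 per treatment, and H1792 gave 3 of each, so all comparisons were made over libraries within a line or between the lines.

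Standard histone genes are transcribed in S phase into messages that end in a stem-loop without a poly(A) tail. Variant genes mostly carry introns, although H2AFX, H2AFJ and H1FX have 1 exon each. Most variant messages end in a poly(A) tail and are made through the cell cycle, and their proteins are placed by dedicated chaperones. H2A.X is phosphorylated around DNA breaks, H2A.Z sits beside promoters, macroH2A1 marks repressed chromatin, and H3.3 is deposited at active genes and at telomeric and pericentric repeats. Aurora B phosphorylates the tail of histone H3 in mitosis.

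In A549, total counts ranged from 4254644 to 18962883 per library, and in H1792 from 42760874 to 79902934. A549 DMSO replicate 1 was the smallest library and differed from the other A549 DMSO libraries by a chi-square per gene of 13.8 to 16.7, against 3.31 to 4.75 among those others. In the deeper H1792 libraries it was 14.8 to 48.3 among DMSO replicates, highest between replicates 1 and 2. Among H1792 AMG900 replicates it was 6.13 to 25.0. This measure grows with the number of counts, so its values are not compared between the lines. Replicates differed by more than counting error, and the labels do not say that they came from separate passages or days, so p-values measure only the spread between these libraries. All 6 epithelial markers had counts in every group, with a summed level of 7970 to 12300 CPM (read counts scaled to the size of the library) in A549 and 1540 to 1970 CPM in H1792. KRT7, KRT8 and KRT18 each had at least 7097 counts per library. EPCAM had only 1 to 7 counts per A549 library with DMSO and 2 to 10 with AMG900. CDH1 had 25 to 48 counts per H1792 library with DMSO and 38 to 71 with AMG900. The 4 fibroblast markers summed to 204 to 224 CPM in H1792 with DMSO and 110 to 117 CPM with AMG900, and to under 1 CPM in every A549 library. The 4 leukocyte markers summed to at most 11.3 CPM, with CD3E at 0 in both A549 groups, and the 3 endothelial markers to at most 16.1 CPM. The part of these markers in the results below was not tested.

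The promoters of H2AFX, H2AFZ and H2AFV are shown because these 3 genes fell together in A549. Each is the 250 bases before the RefSeq transcript start in GRCh38.p14, on the minus strand, written 5′ to 3′ along the gene. The windows are chr11:119095466-119095715 for H2AFX, chr4:99950276-99950525 for H2AFZ and chr7:44848088-44848337 for H2AFV. Capitals mark 3 motifs on either strand, which appear as their reverse complement where they lie on the opposite strand. CCAAT is the box bound by NF-Y, TTTGAA is a form of the cell cycle genes homology region, and TATAAA is the TATA box.
H2AFX: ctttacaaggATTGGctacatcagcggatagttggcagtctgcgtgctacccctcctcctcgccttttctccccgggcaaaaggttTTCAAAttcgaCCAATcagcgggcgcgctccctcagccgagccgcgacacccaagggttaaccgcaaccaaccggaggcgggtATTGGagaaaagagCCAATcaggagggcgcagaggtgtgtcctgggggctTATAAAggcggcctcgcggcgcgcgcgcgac
H2AFZ: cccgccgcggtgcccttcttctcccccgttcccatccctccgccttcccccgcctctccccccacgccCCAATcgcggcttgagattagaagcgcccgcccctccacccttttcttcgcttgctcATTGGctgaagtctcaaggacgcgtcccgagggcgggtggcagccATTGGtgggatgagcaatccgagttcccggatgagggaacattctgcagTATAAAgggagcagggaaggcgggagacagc
H2AFV: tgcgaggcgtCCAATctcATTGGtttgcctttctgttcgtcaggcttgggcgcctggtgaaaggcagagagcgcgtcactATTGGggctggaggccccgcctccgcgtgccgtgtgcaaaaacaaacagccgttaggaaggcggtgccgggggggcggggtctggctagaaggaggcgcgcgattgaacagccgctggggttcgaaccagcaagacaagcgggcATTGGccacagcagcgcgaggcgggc
CCAAT occurred 4 times in the H2AFX window, 3 times in that of H2AFZ and 4 times in that of H2AFV, while 32.0% of 35116 promoter windows of this length held at least 1 copy. TTTGAA, the only form of that region searched, was found in H2AFX alone of the members, against 13.3% of windows. None of the members' windows held TTTCCCGC, TTTGGCGC, TTTCGCGC or TTTGGCGG, letters of the E2F site that 2.83% of windows held. TATAAA stood 31 to 26 bases before the start in H2AFX, H2AFZ and H1FX and 29 to 24 bases before it in H3F3B, against 10.7% of windows with a copy at any place. H3F3B held 4 copies of CCAAT and H2AFJ 3. H2AFY held 2 copies in window 2, and H3F3A held 1 copy each in windows 1, 2 and 4. Only H1FX had none, so CCAAT was not limited to the genes shown. RefSeq windows were at hand for all 8 members.

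In A549, AMG900 lowered the transcripts of H2AFX, H2AFZ and H2AFV and raised none of the variants. Among 7 members tested, 3 were lower, where 17.8% of all 13174 genes were lower, and 0 were higher, where 17.2% of all genes were, by edgeR's quasi-likelihood test at an adjusted p under 0.01. The median log2 fold change was −0.26 over these members and −0.01 over all genes. No member was higher with DESeq2 or at an unadjusted p under 0.05 either. With a spline on the GC content of transcripts, described below, 6 of the 7 were lower, where 2340 of 12789 genes were. In 4 members every AMG900 library lay below every DMSO library, as in 22.0% of all genes. H3F3A had too few counts in A549 to be tested.

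H2AFZ, which codes for H2A.Z.1, lies at chr4:100869243-100871512 in GRCh37 and has 5 exons. It measured 267, 243, 251 and 264 CPM in the DMSO libraries of A549 (scaled within the line, as are all CPM values here unless stated), and 91.4, 78.9, 82.3 and 88.4 CPM with AMG900. Every treated library was far below every control library. The level fell 3.00-fold (log2 fold change −1.59, SE 0.0724, edgeR adjusted p = 3.2e-10).

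H2AFV codes for H2A.Z.2, which differs from H2A.Z.1 in a few residues, and has 5 exons at chr7:44866390-44887686. Its DMSO libraries measured 108, 105, 110.2 and 111 CPM in A549, and its AMG900 libraries 53.6, 50.8, 54.3 and 49.1 CPM. The groups did not overlap and each was tight, with an SD of 2.70 CPM in DMSO and 2.43 CPM in AMG900. The fall was 2.10-fold (log2 fold change −1.07, SE 0.0734, edgeR adjusted p = 3.3e-08).

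H2AFX, a gene with 1 exon at chr11:118964584-118966175, measured 265, 176, 192 and 190.2 CPM with DMSO in A549 and 69.8, 70.6, 69.6 and 83.8 CPM with AMG900. DMSO replicate 1 was the highest of the controls and AMG900 replicate 4 the highest of the treated libraries, and the groups stayed apart. H2AFX fell 2.78-fold (log2 fold change −1.48, SE 0.116, edgeR adjusted p = 1.4e-07), and without DMSO replicate 1 the log2 fold change was −1.34 with an adjusted p of 4.3e-14.

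Genes of S phase and of G2 and mitosis moved with these 3 members. The 42 S-phase genes summed to 2100 to 2280 CPM in A549 with DMSO and 545 to 558 CPM with AMG900, and 41 of 41 tested were lower, with a median log2 fold change of −2.40. The 54 genes of G2 and M phase summed to 5250 to 5410 CPM with DMSO and 1680 to 1740 CPM with AMG900, and 51 of 53 tested were lower (median −2.81). In bulk RNA, fewer cells in a phase and less RNA per cell cannot be told apart. The part of these lists in the change of the variants was not tested.

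The other variants tested in A549 did not pass the threshold in this comparison, and 3 of them, H2AFY, H2AFJ and H1FX, were called lower with the GC spline. H2AFY, the gene of macroH2A1, measured 329, 298, 268 and 277 CPM with DMSO and 246, 260.4, 241 and 253 CPM with AMG900. Every AMG900 library lay below every DMSO library, and the change did not pass the threshold (log2 fold change −0.23, edgeR adjusted p = 0.019). With total counts in place of TMM factors H2AFY was called lower (−0.30, adjusted p = 0.0026).

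Nearly all H3.3 counts fell on H3F3B, though the few H3F3A counts say little about the level of that gene, as described below. H3F3B measured 506, 342, 354 and 344 CPM with DMSO in A549 and 307, 306, 328 and 344 CPM with AMG900. Its DMSO replicate 1 stood far above the other libraries, and the groups overlapped (log2 fold change −0.26, SE 0.109, edgeR adjusted p = 0.061). H1FX measured 397, 245, 255.9 and 266 CPM with DMSO and 232, 265, 247 and 299 CPM with AMG900. Again DMSO replicate 1 stood apart, and without it the estimate for H1FX turned from −0.15 to 0.03 on the log2 scale. H2AFJ, the gene of a variant known to accumulate in senescent fibroblasts, measured 192, 130.5, 142 and 147 CPM with DMSO and 146, 149.7, 153 and 179 CPM with AMG900, with overlapping groups (log2 fold change 0.05, 95% interval −0.19 to 0.28, edgeR adjusted p = 0.75). With the GC spline its direction turned and it was called lower (−0.37, adjusted p = 0.001).

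**Figure D1:**
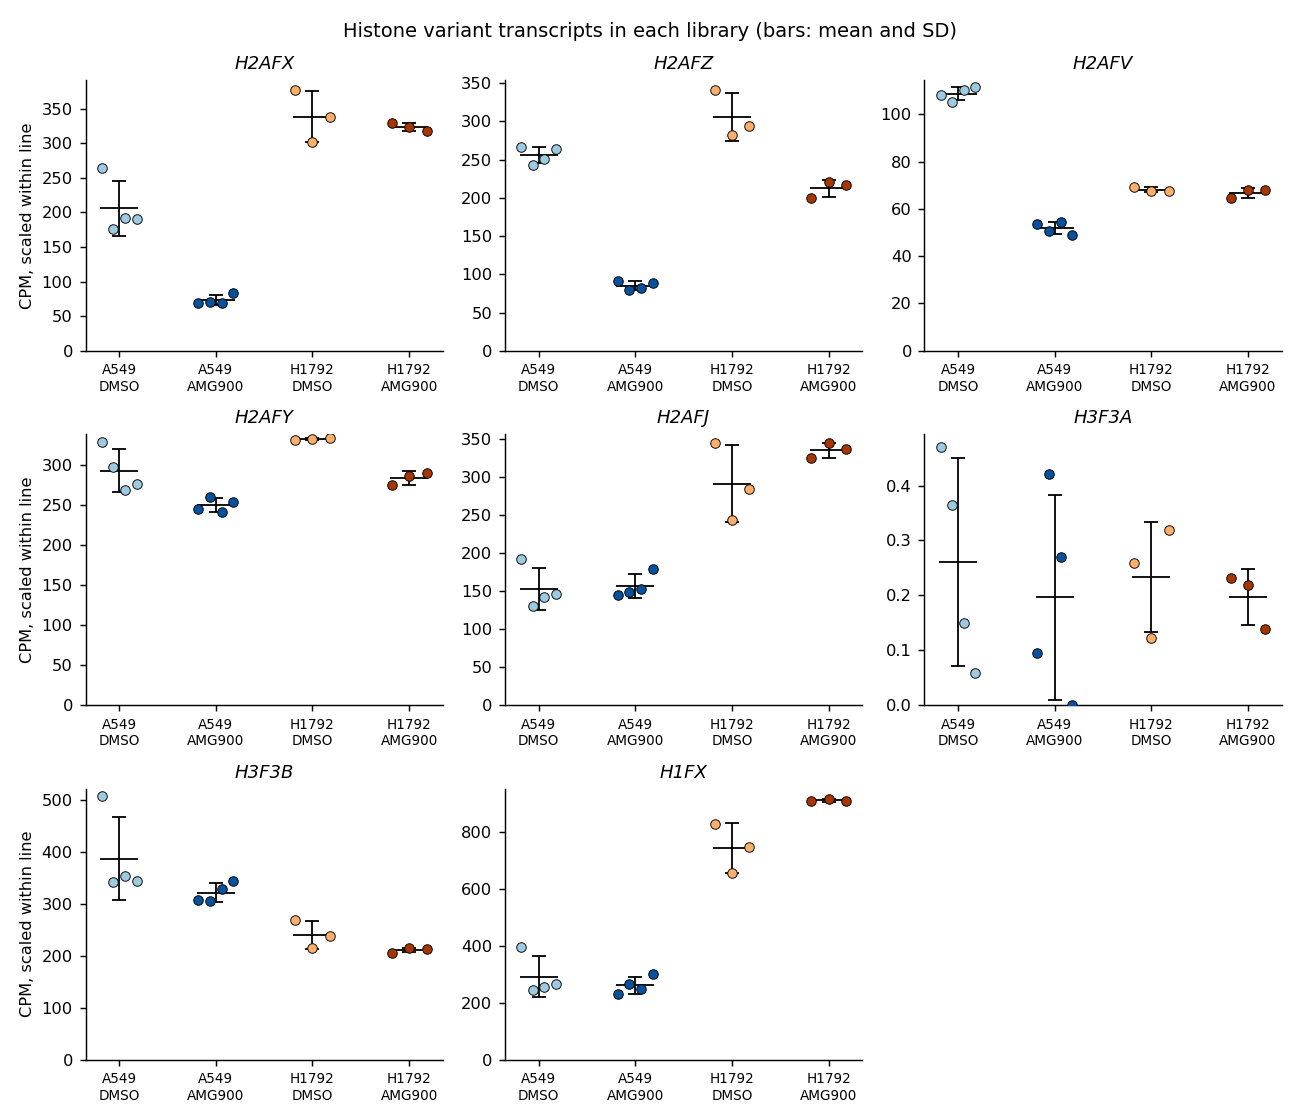
Level of each variant in CPM scaled within the line (vertical axes from 0) in the 4 groups, with 1 point per library and the mean and SD as bars. H2AFX, H2AFZ and H2AFV are low in all A549 AMG900 libraries, and H1FX is high in all H1792 AMG900 libraries at 907 to 917 CPM. The values of H3F3A stay under 0.5 CPM and say little about its level, as described below.

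In H1792, H2AFZ and H2AFY were lower with AMG900 and the linker histone H1FX was higher, while H2AFX and H2AFV did not pass the test. The calls of H2AFY and H1FX were lost without some single libraries, and that of H1FX also with the GC spline. Of the 8 members tested, 1 was higher and 2 were lower, where 16.2% and 18.8% of all 15017 genes were. Every AMG900 library lay above every DMSO library in 1 member, as in 30.1% of all genes, and below in 3, as in 29.6%. The median log2 fold change was −0.13 over the members and 0.01 over all genes.

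H1FX (chr3:129033614-129035129, 1 exon) measured 828.9, 655 and 748 CPM with DMSO in H1792 and 908, 917 and 907 CPM with AMG900. The treated libraries were tightly grouped and above all controls. H1FX rose 1.22-fold (log2 fold change 0.29, SE 0.0746, edgeR adjusted p = 0.0081). Leaving out AMG900 replicate 1, 2 or 3 or DMSO replicate 3 took its adjusted p to between 0.0289 and 0.0349. Correction for GC content ended the call as well, with a log2 fold change of −0.06.

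H2AFZ measured 341, 282 and 294 CPM with DMSO in H1792 and 200.2, 220.4 and 217 CPM with AMG900. The treated libraries were all below the controls, and the level fell 1.44-fold (log2 fold change −0.52, SE 0.0746, edgeR adjusted p = 0.00025). H2AFZ was the only member lower in both lines at this threshold, where 9.31% of the 12625 genes tested in both were.

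H2AFY measured 331, 332 and 334 CPM with DMSO in H1792 and 275, 287 and 291 CPM with AMG900. Its controls were nearly equal and above all treated libraries, and H2AFY fell 1.17-fold (log2 fold change −0.23, SE 0.0477, edgeR adjusted p = 0.0027). Without AMG900 replicate 1 or 2 or DMSO replicate 3 its adjusted p was between 0.0176 and 0.0207. The estimate was close to that of A549, −0.23, where the adjusted p was 0.019.

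H2AFX measured 376, 301 and 338 CPM with DMSO in H1792 and 329, 324 and 318 CPM with AMG900, so that the treated libraries lay inside the range of the controls (log2 fold change −0.07, 95% interval −0.23 to 0.10, edgeR adjusted p = 0.49). With the GC spline H2AFX was called lower in H1792 (−0.41, adjusted p = 7.8e-06). H2AFV measured 69.5, 67.6 and 67.4 CPM with DMSO and 64.4, 67.8 and 68.0 CPM with AMG900, also with overlapping groups (log2 fold change −0.03, 95% interval −0.15 to 0.09, edgeR adjusted p = 0.66). With or without the spline, the estimates of both genes were closer to 0 than in A549.

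H2AFJ (346, 244 and 285 CPM with DMSO and 325, 345 and 337 CPM with AMG900) overlapped between the groups (log2 fold change 0.20, edgeR adjusted p = 0.12), and it passed the test only without DMSO replicate 1 (0.32, adjusted p = 0.0002). H3F3B (269, 215 and 238 CPM with DMSO and 206, 215 and 212 CPM with AMG900) had an estimate of −0.19 (edgeR adjusted p = 0.054), with the highest treated library just below the lowest control, and it passed without DMSO replicate 2 (−0.27, adjusted p = 0.0022). The S-phase genes of H1792 summed to 1830 to 1840 CPM with DMSO and 1380 to 1410 CPM with AMG900, with 26 of 42 tested lower. The G2 and M genes summed to 5660 to 5940 CPM with DMSO and 6260 to 6400 CPM with AMG900, with 7 higher and 11 lower of 54. Their part in the values of the variants was not tested.

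**Figure D2:**
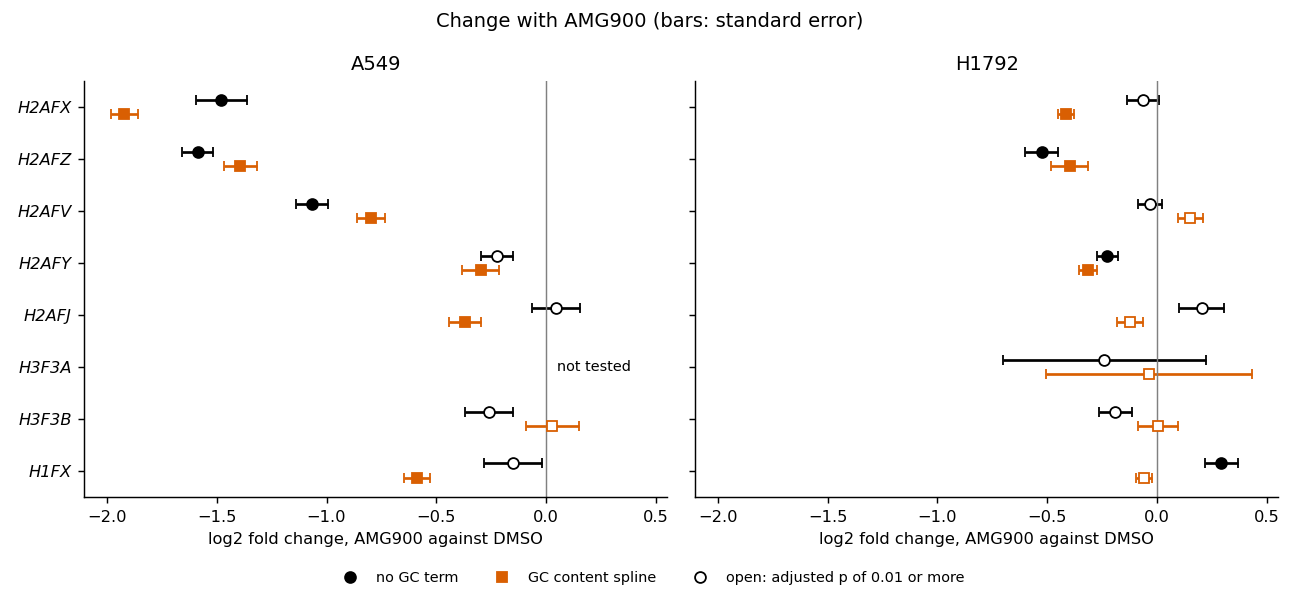
Log2 fold change with AMG900 (horizontal axis, with standard errors) for each variant in A549 (left) and H1792 (right), without a GC term (circles) and with a spline on transcript GC content (squares), filled where the adjusted p is under 0.01. H2AFZ is lower and keeps its call in both lines and both fits, while H1FX in H1792 moves from 0.29 to −0.06.

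The fold changes of all genes followed the GC content of their transcripts, with a Spearman correlation across genes of 0.499 in A549 and 0.481 in H1792, and the members span 42.8% GC (H3F3A) to 68.6% GC (H1FX). A per-library spline on GC content left the falls of H2AFZ (−1.39), H2AFV (−0.80) and H2AFX (−1.92) in A549. With it 6 members were called lower in A549, where 2340 of 12789 genes were. This added H2AFY (log2 fold change −0.30, adjusted p = 0.0097), H2AFJ (−0.37, adjusted p = 0.001) and H1FX (−0.59, adjusted p = 2.4e-06), and H3F3B moved to 0.03. In H1792 the spline kept H2AFZ (−0.40) and H2AFY (−0.32) lower, and it brought H2AFX past the threshold. The estimates of the GC-rich genes H2AFX (66.8% GC) and H1FX were thus lower with the spline in both lines. Whether the trend with GC arose in the cells or in the libraries was not tested.

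The response of 3 variants differed between the lines. In the interaction test over the 14 libraries, H2AFX, H2AFZ and H2AFV had a higher fold change in H1792 than in A549, 3 of 7 members tested, where 5.37% of 14769 genes did, and 0 members had a lower one, where 9.17% did, at this threshold, with DESeq2 or at an unadjusted p under 0.05. The difference in log2 fold change was 1.33 for H2AFX (95% interval 1.00 to 1.66, edgeR adjusted p = 3.6e-06), 0.99 for H2AFZ (0.76 to 1.21, adjusted p = 1.2e-06) and 0.96 for H2AFV (0.77 to 1.15, adjusted p = 1.7e-07). H2AFZ thus fell in both lines and by less in H1792. Such a higher fold change in H1792 was also called in 34 of 42 S-phase genes (median difference 1.77) and 46 of 54 G2 and M genes (median 2.68). No gene of these lists had a lower one. The part of these lists in the difference of the variants was not tested. H1FX differed by 0.36 (adjusted p = 0.16, and 0.59 with adjusted p = 1.9e-05 under the GC spline), while H2AFY (−0.08), H2AFJ (0.08) and H3F3B (−0.01) did not pass.

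Over all genes the median of this difference was −0.10, and it was 0.01 with the GC spline. Of the genes called, 36.9% were higher in H1792 in the main comparison, 49.5% with the size factors of DESeq2 and 55.2% with the GC spline, and the 3 members were called in each.

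With AMG900, H2AFZ gave a smaller part of the counts of the H2A.Z genes. H2AFZ gave 71.1%, 69.8%, 69.5% and 70.3% of the H2AFZ and H2AFV counts in the A549 DMSO libraries and 63.0%, 60.9%, 60.2% and 64.3% in the AMG900 libraries. In H1792 it gave 83.1%, 80.7% and 81.4% with DMSO and 75.7%, 76.5% and 76.1% with AMG900. The share was lower in every treated library of each line, with a difference of −8.07 percentage points in A549 (two-sided exact permutation test, p = 0.0286) and −5.61 points in H1792 (exact p = 0.1). Each p is the smallest that its design allows, so 3 against 3 libraries cannot reach 0.05. The share does not depend on how libraries are scaled, and the transcripts have a GC content of 44.7% and 43.4%. They differ in length, 866 bases for H2AFZ and 3026 for H2AFV, and with counts divided by length the differences were −4.03 points in A549 and −2.22 points in H1792. Division by a fixed length keeps the order of the libraries, so the exact p could not change and is no further test. Whether length moved the counts differently between libraries was not tested.

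**Figure D3:**
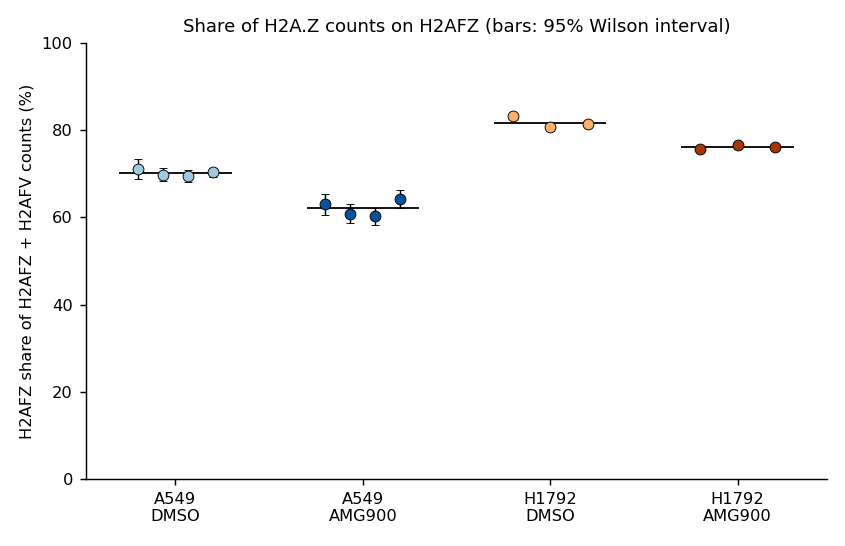
H2AFZ as a percent of H2AFZ and H2AFV counts (vertical axis, 0 to 100) in each library, with 95% Wilson intervals, which cover counting error only, and the group mean as a line. The AMG900 libraries lie below the DMSO libraries of their line, at 60.2% to 64.3% against 69.5% to 71.1% in A549 and 75.7% to 76.5% against 80.7% to 83.1% in H1792.

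H3F3A and H3F3B code for the same H3.3 protein, yet H3F3A had only 0 to 6 counts per library in A549 and 6 to 18 in H1792. Its share of H3.3 counts was 0.0646% ± 0.0419 (SD, n = 4) with DMSO and 0.0626% ± 0.0603 (SD, n = 4) with AMG900 in A549, and 0.0960% ± 0.0385 (SD, n = 3) and 0.0933% ± 0.0249 (SD, n = 3) in H1792. The shares did not differ beyond their spread (exact permutation p = 1.0 in each line). Of the 75-base stretches of the H3F3A transcript, 91.3% occur again elsewhere in GRCh37, at 9 other loci, and of the 50-base stretches 94.0% do. Read counters commonly set aside reads that match several places, and the counting options are not given in the sources used here, so these counts say little about the level of H3F3A. For the other members, 0% to 5.09% of 75-base stretches were found elsewhere. H3F3B had 5.09%, H2AFV 4.40% and H2AFZ 2.15%, and at 50 bases these were 12.7%, 11.0% and 13.3%. How far shared stretches moved the counts of H2AFZ and H2AFV was not tested.

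With DMSO, the variants were not equally abundant in the lines. On a scale common to the 14 libraries, 5 members were higher and 2 lower in H1792 than in A549, of 7 tested, where 34.2% and 31.9% of all 14769 genes were. H1FX was 2.76-fold higher in H1792 (edgeR adjusted p = 3.9e-09), H2AFJ 2.06-fold (1.6e-07), H2AFX 1.78-fold (1.3e-06), H2AFZ 1.28-fold (0.00029) and H2AFY 1.22-fold (0.00055). H2AFV and H3F3B were each 1.49-fold lower, with adjusted p of 1.3e-07 and 9.8e-05. In each of these 7 genes, the DMSO libraries of the lines did not overlap, as in 68.3% of all genes. The lines were deposited in separate tables, so line and library batch cannot be told apart, and the all-gene median of this contrast moved from 0.04 to −0.07 when total counts replaced TMM factors. The call of H2AFY (0.18) was then lost. With splines on GC content and length the log2 differences were smaller, at 0.25 for H2AFJ (adjusted p = 0.00053), 0.40 for H2AFX (1.3e-06), 1.03 for H1FX (2.2e-12) and 0.032 for H2AFZ, whose call was lost as was that of H2AFY (0.22, adjusted p = 0.014).

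Per kb of transcript, on the scale of the 14 libraries, the order of levels with DMSO also differed. The length used is that of the canonical GENCODE transcript of each gene, which is 620 bases for H2AFJ. How far this choice of transcript moved the order was not tested. In A549 it ran from H2AFZ (283 ± 13.3 CPM per kb, SD, n = 4) through H2AFJ (236 ± 40.3), H1FX (183 ± 43.3), H2AFY (146 ± 11.7), H3F3B (137 ± 26.8) and H2AFX (123 ± 23.0) to H2AFV (34.4 ± 1.30). Neighbours from H2AFZ down to H2AFX overlapped in range, and H2AFV lay clear of the rest. In H1792 it ran from H1FX (503 ± 59.5 CPM per kb, SD, n = 3), H2AFJ (482 ± 85.1) and H2AFZ (362 ± 37.8), which overlapped as neighbours, through H2AFX (218 ± 24.5), H2AFY (178 ± 0.769) and H3F3B (91.1 ± 10.3) to H2AFV (23.1 ± 0.414). From H2AFZ downwards, neighbours did not overlap there. H2AFZ thus led H2AFV on this scale in every group, and with AMG900 in A549 it measured 99.4 CPM per kb and ranked below H2AFJ, H1FX, H2AFY and H3F3B.

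**Figure D4:**
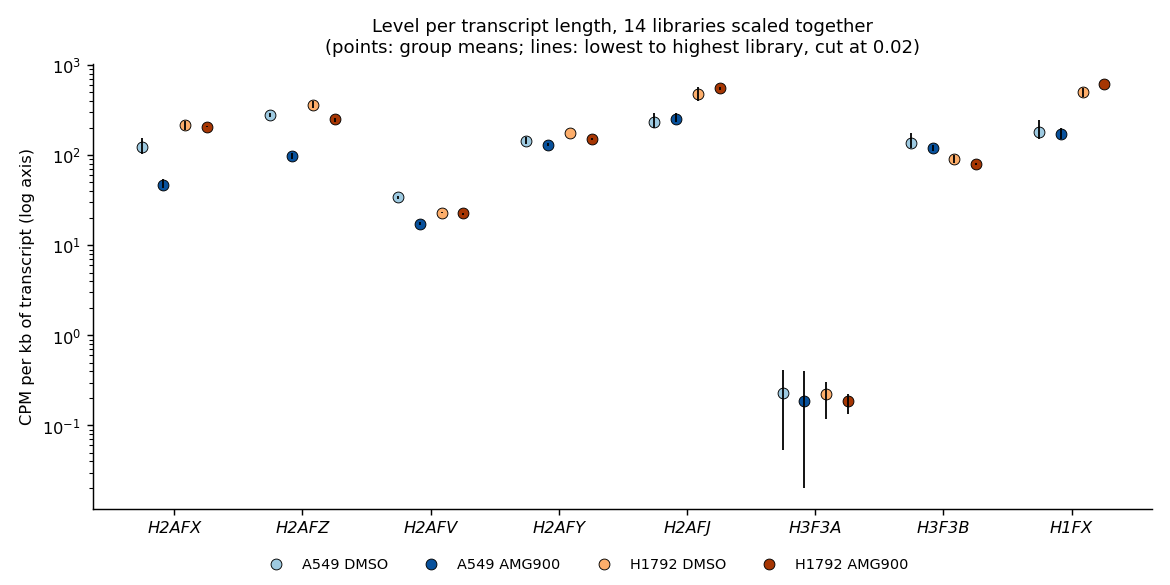
Level of each variant in CPM per kb of transcript (log axis, the 14 libraries scaled together) as group means, with lines from the lowest to the highest library. H2AFZ drops from 283 to 99.4 in A549. The values of H3F3A lie far below all others, near 0.2, and say little about its level, since most of its transcript occurs again elsewhere in GRCh37.

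Genes whose exons overlap those of members were looked up, since the strand setting of the counting is not given in the sources used here. H1FX-AS1 covers 22.8% of the H1FX transcript on the opposite strand and had 1.19 to 4.29 CPM, against at least 232 CPM for H1FX. C5orf66 covers 9.13% of the H2AFY transcript and had 1.16 to 4.39 CPM. H2AZ1-DT covers 7.04% of the H2AFZ transcript on the opposite strand. It was not found in the count tables, so its level is not known here. How far shared bases moved the counts of H1FX, H2AFY and H2AFZ was not tested.

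Variants outside these 8 changed as well. Of 14 other variant genes, mostly of the germ line, 3 passed the filter on low counts in A549 and 2 in H1792. CENPA, the centromeric H3, fell 6.94-fold in A549, from 16.3 ± 4.29 to 2.43 ± 0.471 CPM (SD, n = 4, edgeR adjusted p = 1.3e-07), and in H1792 had a log2 fold change of 0.28 (adjusted p = 0.015). H3F3C, an intron-less relative of H3F3B whose near-identical sequence makes its counts uncertain, fell 5.61-fold in H1792, from 12.0 ± 2.62 to 2.15 ± 0.354 CPM (SD, n = 3, edgeR adjusted p = 4.9e-06). In A549 its groups overlapped (log2 fold change −0.12, adjusted p = 0.79). H2AFY2, which codes for macroH2A2, measured 87.6 to 104 CPM in the A549 libraries and had 1 to 4 counts per library in H1792, while H2AFY was present in both lines.

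Chaperones and remodellers place variants into nucleosomes and remove them. Of 21 genes of the SRCAP and TIP60 complexes and other H2A.Z exchange factors, 8 were lower and 2 higher in A549, and 5 were lower and 3 higher in H1792 (medians −0.44 and −0.12), where 17.8% of all genes were lower and 17.2% higher in A549, and 18.8% and 16.2% in H1792. The same shares apply to the counts of the lists that follow. In A549 these included ANP32E, a chaperone that removes H2A.Z, which fell 2.77-fold from 35.5 ± 2.56 to 13.0 ± 2.80 CPM (SD, n = 4, edgeR adjusted p = 1.2e-06), and the shared subunits ACTL6A and YEATS4, which fell 2.95-fold and 2.33-fold. In H1792 YEATS4 fell 2.12-fold, ACTL6A 1.87-fold and ACTR6, a subunit of SRCAP, 2.99-fold from a low level of 2.99 ± 0.166 CPM (SD, n = 3). ZNHIT1 rose in both lines, 1.62-fold in A549 and 1.27-fold in H1792. DMAP1 also rose in A549 (1.45-fold), and RUVBL2 (1.35-fold) and VPS72, which binds H2A.Z (1.17-fold), rose in H1792.

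Of 8 H3.3 chaperone genes, HIRA fell in both lines, 1.59-fold in A549 and 1.28-fold in H1792 (edgeR adjusted p = 0.0002 and 0.0011), and ASF1B fell 10.2-fold in A549 (adjusted p = 1.8e-09). The other 6 in A549 and 7 in H1792 did not pass, and the medians were −0.32 and 0.00. Among genes that phosphorylate, read or dephosphorylate H2A.X, 3 of 11 were lower and 1 higher in A549, and 4 of 12 were lower in H1792, beside 17.8% of all genes lower in A549 and 18.8% in H1792. The kinase PRKDC fell in both, 1.86-fold and 1.75-fold, BAZ1B fell 1.68-fold and the phosphatase gene PPP2CA 1.41-fold in A549, and PPP4C rose 1.25-fold there. In H1792 ATR fell 2.18-fold and MDC1, the reader of phosphorylated H2A.X, 5.57-fold at a level under 1 CPM. General histone chaperones were lower in 5 of 7 cases in A549 and 4 of 7 in H1792. NASP fell 2.28-fold and SSRP1 1.92-fold in A549, SET fell 1.82-fold in A549 and 1.96-fold in H1792, and in H1792 NAP1L1 fell 1.39-fold and SSRP1 1.30-fold. NASP is also on the S-phase list, and ANP32E and CENPA on the G2 and M list.

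Histone genes with HIST cluster symbols, apart from those on the list of other variants, were taken as replication-dependent and numbered 69. Whether each of these genes was tied to S phase was not tested. In A549 19 passed the filter, 3 of them higher and 1 lower, and in H1792 52 passed it, 14 of them higher, with medians of 0.00 and 0.42, where 17.2% of all genes were higher in A549 and 16.2% in H1792. HIST1H1C, a linker histone, rose 2.01-fold in A549, HIST1H2BK 1.39-fold and HIST1H2AC 1.37-fold. HIST1H4C fell 5.56-fold in A549, from 8.40 ± 1.77 to 1.54 ± 0.305 CPM (SD, n = 4), and rose 17.5-fold in H1792, from 2.47 ± 0.197 to 43.1 ± 4.40 CPM (SD, n = 3), where HIST3H2BB (2.90-fold) and HIST1H2BO (2.72-fold) also rose. Whether poly(A) RNA was selected for the cell lines is not given in the sources used here.

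**Figure D5:**
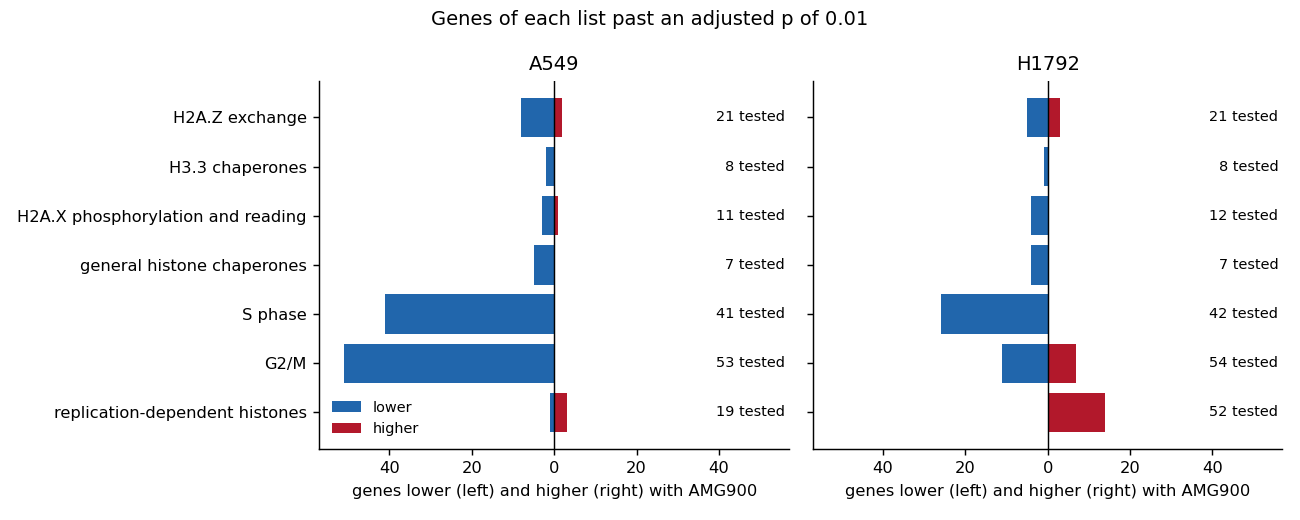
Number of genes of each list lower (left, blue) or higher (right, red) with AMG900 at an adjusted p under 0.01 in A549 and H1792, with the number tested at the right. In A549 41 S-phase and 51 G2 and M genes are lower, and in H1792 26 and 11 are, beside 14 higher replication-dependent histone genes.

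The genes whose pattern was most like that of a member were found by the Pearson correlation of log2 CPM over the 14 libraries, after the mean of each line was taken off, among 8509 genes. Libraries share treatment, so this is a description. H2AFZ was most like MCM2 (r = 0.992), FEN1 (0.990) and CDK2 (0.990), H2AFV like CDC6, WDR62 and RFC2 (each 0.994), and H2AFX like XRCC3 (0.991), PAQR4 (0.989) and POLD1 (0.985). MCM2, a replicative helicase subunit, was lower in both lines, with log2 fold changes of −2.29 in A549 and −0.60 in H1792. CDC6, which loads that helicase, changed by −3.28 in A549 and −0.10 in H1792, and XRCC3, a recombination gene, by −2.06 and −0.05. The best matches of H1FX (PAK4, 0.972), H3F3B (UQCC3, 0.974), H2AFJ (BRF1, 0.964) and H2AFY (FUCA2, 0.951) were less close.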

How the data were processed

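RNA sequencing of A549 and H1792 cells gave 14 libraries. The authors deposited raw counts, whole numbers of reads per gene symbol without normalization, in 1 table per line. The submitters' processing notes name STAR, HTSeq, GRCh37 and hg19, and versions and counting options are not given in the sources used here. The 28 entries of the H1792 table with dates in place of symbols were left out (0.101% to 0.117% of counts). The members and gene lists were chosen with earlier results of these data known, and 1 further gene of the set is not reported here. Libraries were grouped by the cell line and treatment of their labels.

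Genes were kept by filterByExpr, libraries scaled by TMM, and groups compared by edgeR 4.0.16 (R 4.3.3) with the quasi-likelihood test and Benjamini-Hochberg adjustment over all genes tested, at a threshold of 0.01, within each line (13174 and 15017 genes) and in 1 fit over the 14 libraries (14769 genes) for the interaction and the DMSO groups. CPM within a line or over the 14 libraries use TMM factors, and log2 CPM a prior count of 2. Shares were compared by two-sided exact permutation tests, with 95% Wilson intervals for counting error. The biological coefficient of variation was 12.8% in A549, 9.6% in H1792 and 11.3% over both. On simulated data the tests recovered 99.5% of 2-fold changes in A549, 100% in H1792, 60.5% for the interaction and 98.5% for the DMSO groups.

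Alternatives were DESeq2 1.42.0, its size factors, total counts, other filters, a threshold of 0.05, splines with 5 degrees of freedom on GC content and transcript length, a replicate block and each library left out. Same-numbered DMSO and AMG900 libraries did not deviate together (r −0.06 to 0.04), so no block was used. Gene positions, lengths and uniqueness come from GENCODE on GRCh37 and promoters from RefSeq on GRCh38.p14. Older symbols were matched through RefSeq synonyms.

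The genes named are the 8 members, CENPA, H2AFY2 and H3F3C, from each histone list up to 3 called genes with the largest change each way per line, and the 3 genes most like each member, from genes whose mean count reached 100 in both lines. Overlapping genes are named with them.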

Additional observations from a re-analysis of the deposited data

Results flagged for a closer look

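Of 20 sets of 4 A549 libraries examined, 3 held a library far from the others by Dixon's criterion, which chance gives in about 1 of 20 sets. H2AFX measured 83.8 CPM in A549 AMG900 replicate 4, against 69.6 to 70.6 CPM in the other AMG900 libraries. In A549 DMSO replicate 1, H3F3B measured 506 CPM and H1FX 397 CPM, against at most 354 and 266 CPM in the other DMSO libraries. The change with AMG900 differed between the lines, tested as an interaction on the log2 scale, for H2AFX (1.33), H2AFZ (0.99) and H2AFV (0.96).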

How the results depend on the processing

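Under all alternatives run, H2AFX, H2AFZ and H2AFV stayed lower in A549, H2AFZ lower in H1792, and H2AFX, H2AFZ and H2AFV different between the lines. In A549 the members called lower, 3 in the main comparison, numbered 4 with total counts or at a threshold of 0.05, 6 with the GC spline or the GC and length splines, and 5 with the replicate block and GC spline. Of 13174 genes, 2340 were lower in the main comparison, 2850 with total counts and 3317 at a threshold of 0.05. Of 12789 genes, 2340 were lower with the GC spline, 2271 with GC and length, and 2092 with the block and GC. In H1792 the members called higher, 1 in the main comparison, numbered 0 with total counts, the GC spline, the GC and length splines, or the replicate block with the GC spline. Of 15017 genes, 2439 were higher in the main comparison and 1859 with total counts. Of 14375 genes, 2178 were higher with the GC spline, 2155 with GC and length, and 1878 with the block and GC. With single libraries left out, 0 to 2 members were higher and 1 to 3 lower in H1792, beside 1382 to 3047 of all genes higher and 1853 to 3656 lower. With the GC and length splines, 5 members differed between the lines in their response, against 3, and 3 were higher in H1792 with DMSO, against 5. Of 14228 genes with these splines, 1415 had a higher and 1155 a lower response in H1792, and 4827 were higher there with DMSO.

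The estimate of H2AFJ in A549 turned to −0.03 with total counts, −0.37 with the GC spline, −0.48 with GC and length and −0.37 with the block and GC, and that of H3F3B to 0.028, 0.0099 and 0.043 with the last 3. In H1792, with GC, GC and length, and the block and GC, H2AFV turned to 0.15, 0.15 and 0.15, H2AFJ to −0.12, −0.16 and −0.12, and H1FX to −0.060, −0.11 and −0.060, and with GC or the block and GC H3F3B turned to 0.0019 and 0.014. In the interaction, H3F3B turned to 0.077 with DESeq2, 0.073 with its size factors, 0.081 with total counts and 0.0019 without a filter, and H2AFY to 0.0007 with size factors, 0.0078 with total counts, 0.030 with GC, 0.0093 with GC and length and 0.023 with the block and GC. With single libraries left out, estimates ranged from −0.024 to 0.17 for H2AFJ and −0.23 to 0.028 for H1FX in A549, from −0.54 to 0.0046 for H3F3A in H1792, and in the interaction from −0.039 to 0.21 for H2AFJ and −0.15 to 0.069 for H3F3B. The difference in the H3F3A share ranged from −0.027 to 0.0188 percentage points in A549 and from −0.0221 to 0.0164 in H1792. Between the DMSO groups, H2AFZ lost its call with GC and length (0.032) and H2AFY with total counts or GC and length. The causes were not tested.

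Replicate numbers did not pair the libraries, and 1 of 7 matched its own number best. With the replicate block, 3 members stayed lower in A549, 1 higher and 2 lower in H1792, and 3 differed between the lines. Of all genes with the block, 1984 of 13174 were lower in A549, and 2170 were higher and 2618 lower of 15017 in H1792. In the interaction 604 of 14769 were higher and 984 lower. A paired test of the H2AFZ share in A549 gave the same difference of −8.07 points with p = 0.125 by exact sign flips, the smallest it allows. With counts divided by transcript length, the H2AFZ share differed by −4.03 points in A549 and −2.22 points in H1792. In A549, H3F3A had at most 6 counts per library, too few for a test. No fit with line and batch as separate terms is possible.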
